A study of Mus musculus with 10 samples.

Results

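The BCL2 family of apoptosis regulators was followed in CD4+ splenocytes 6 h after the start of abdominal sepsis. The genes were the anti-apoptotic Bcl2, Bcl2l1 (Bcl-xL) and Mcl1, the BH3-only activators and sensitisers Bcl2l11 (Bim), Bbc3 (Puma), Pmaip1 (Noxa), Bid and Bad, and the pore-forming effectors Bax and Bak1. A member was every probe set of the array with exactly 1 gene symbol in the platform annotation, that symbol being in this list. This gave 29 of the 34945 probe sets with 1 symbol, for 9 of the 10 genes listed, out of 18193 genes in all. Bax was the symbol of no such probe set and was not analysed here.

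All mice were C57Bl/6, aged 8 to 12 weeks, and were operated on under halothane. In the CLP group (n = 5 mice) the cecum was tied off and punctured, which lets gut bacteria into the peritoneum. In the sham group (n = 5 mice) the cecum was brought out and handled only, so both groups had the same anaesthesia and opening of the abdomen. CD4+ cells were enriched from the spleen by removal of other cells to about 91%, so each sample still held some other cells, and 1 Affymetrix array was hybridised per mouse.

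BCL2 family proteins decide whether the outer membrane of the mitochondrion is opened, the step that releases cytochrome c and starts the caspases. The anti-apoptotic members hold Bax and Bak in check, and the BH3-only members block them or activate Bax and Bak directly. In T cells Bim is the main BH3-only protein for death after cytokine withdrawal and for the deletion of activated and self-reactive cells, and it is opposed mostly by Bcl-2 and Mcl-1. Loss of lymphocytes by apoptosis is a well-known feature of sepsis, which is the question that the comparison of CLP with sham addresses for these genes. Several members, Bid and Bad above all, are also controlled after translation, which an RNA array does not see.

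Bcl2l11, which encodes the death-promoting protein Bim, was the one member with a probe set that passed the test, and it was higher in septic mice. The Bcl2l11 probe set 1435448_at rose 1.64-fold, and the other 3 tested probe sets of the gene had mean signals 1.37-fold to 1.56-fold higher that did not pass. None of the 13 anti-apoptotic probe sets and none of the 7 probe sets of Bbc3, Pmaip1, Bid, Bad and Bak1 passed in either direction. Their log2 fold changes lay between -0.17 and 0.30.

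Signals are the deposited intensities in arbitrary scanner units, with every array brought to a median of 132.9. For the test, values under a floor of 69.8 (6.13 on the log2 scale) were set to that floor, log2 was taken, and the dimmest 40% of probe sets were dropped; 27022 probe sets remained. Of the 29 member probe sets 24 were tested, 13 anti-apoptotic and 11 pro-apoptotic. A probe set was called when its p-value from limma (a linear model with moderated variance), with Benjamini-Hochberg adjustment over the 27022 probe sets, was under 0.05. Log2 fold changes are CLP minus sham, with limma's standard error (SE). Signals of different probe sets are not compared, since probes differ in how strongly they bind.

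Before the results, 3 facts of the arrays bear on them. The 10 arrays fell into a class with a higher mean 18S ribosomal RNA signal, above 1000, and a class with a lower one, each with the same make-up in both groups (3 and 2 arrays). The CD4 T cell markers (7 of 8 had a probe set) were present on every array, with a summed signal of 12882 to 15041 in CLP and 14718 to 20963 in sham arrays. None of the 7 passed by limma (3 at an unadjusted p under 0.05, median log2 fold change -0.35). Markers of other cells were also present: the summed signal of 7 neutrophil genes ran from 2314 to 14159 in CLP and from 3688 to 10552 in sham arrays, with replicate 1 highest in both groups, and that of 5 erythroid genes from 1574 to 5427 and from 1230 to 2592. For 4 NK cell genes the sums were 1377 to 1815 in CLP and 1844 to 2483 in sham arrays, with Ncr1 at the floor on every array. The lower sums came from Klrd1, with a mean signal of 1106 in CLP and 1608 in sham arrays. Klrk1 (216 and 218) and Prf1 (290 and 271) did not share the fall, and the median log2 fold change of the 3 tested was 0. The neutrophil genes differed in direction: S100a8 and S100a9 had lower means in CLP arrays (-0.82 and -0.9 on the log2 scale). The other 5 had higher ones, from 0.13 for Elane to 1.1 for Ngp. The median log2 fold change was 0.52 for the neutrophil and 0.61 for the erythroid genes tested. Of the neutrophil, erythroid and NK genes tested none passed by limma, with 0, 1 and 1 at an unadjusted p under 0.05. The sums of CD8 T cell, B cell, monocyte and macrophage, dendritic cell and platelet genes overlapped between the groups, and none of those tested passed by limma. Of these, 1 monocyte and macrophage gene had an unadjusted p under 0.05: Cd14, with a mean signal of 460 in CLP and 271 in sham arrays (0.72 on the log2 scale, adjusted p = 0.156 by limma). In such a mixed sample, fewer cells of a type and less RNA per cell cannot be told apart.

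Bcl2l11 encodes Bim, the BH3-only protein that binds every anti-apoptotic member and can also activate Bax and Bak. Its probe set 1435448_at read 1962, 2967, 2537, 2480 and 2787 in CLP replicates 1 to 5, and 1293, 1563, 1513, 1721 and 1610 in sham replicates 1 to 5. Every CLP array lay above every sham array, the closest being CLP replicate 1 and sham replicate 4. The means were 11.30 ± 0.23 in CLP and 10.58 ± 0.15 in sham on the log2 scale (SD, n = 5), which differ by 0.72 ± 0.12 (SE, limma adjusted p = 0.0311). This was the single called member of 24. Among all 27022 probe sets 0.703% were called, 0.167% higher and 0.537% lower.

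The brightest Bcl2l11 probe set, 1456005_a_at, read 5833, 4479, 5975, 3831 and 6849 in CLP replicates 1 to 5, and 4428, 2460, 4305, 2901 and 4418 in sham replicates 1 to 5. The groups overlapped, with replicates 2 and 4 as the lowest arrays of both. Its log2 fold change was 0.55 ± 0.21 (SE, adjusted p = 0.303 by limma). The dimmer 1435449_at read 149, 242, 190, 135 and 153 in CLP replicates 1 to 5 and 98, 120, 126, 93 and 112 in sham replicates 1 to 5, with no overlap, and gave 0.64 ± 0.16 (SE, adjusted p = 0.101 by limma). CLP replicate 2 was the highest array of this probe set and of 1435448_at. The last tested probe set, 1456006_at, read 381, 409, 462, 296 and 507 in CLP and 304, 248, 310, 261 and 361 in sham replicates 1 to 5. It overlapped through CLP replicate 4 and gave 0.46 ± 0.15 (SE, adjusted p = 0.23 by limma). The remaining probe set, 1426334_a_at, read 42 to 58, under the floor on all 10 arrays, and was not tested.

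**Figure D1:**
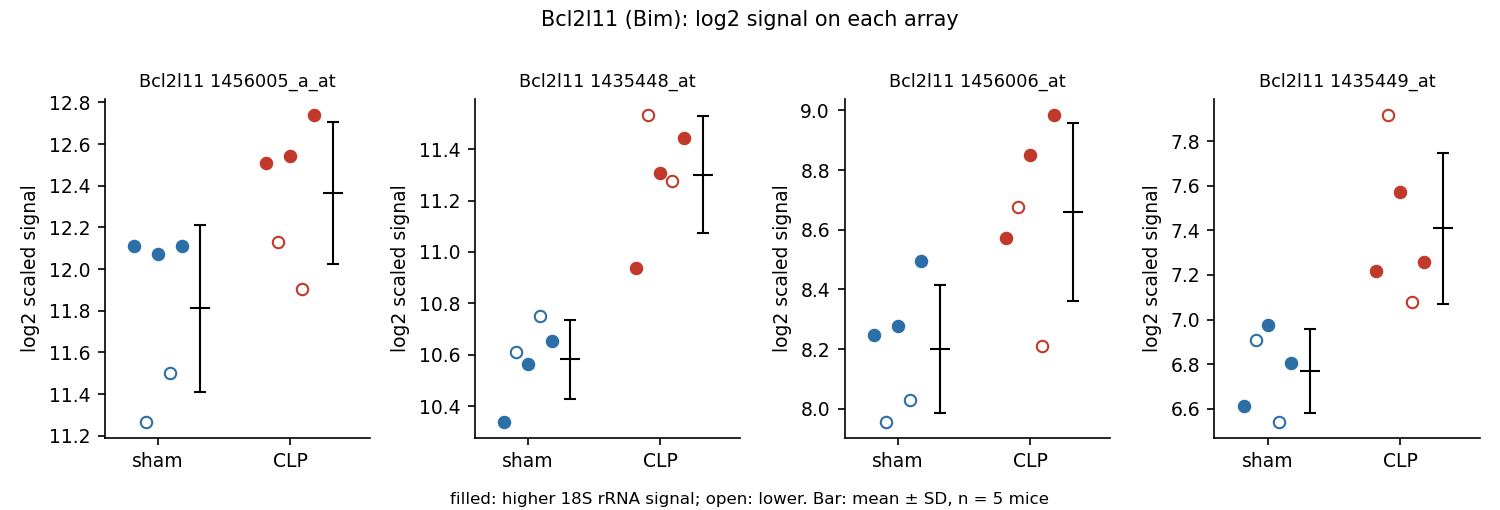
Log2 scaled signal of the 4 tested Bcl2l11 probe sets on each array (1 point per mouse, sham left and CLP right), with the mean and SD of 5 mice beside the points and filled points for arrays of the higher 18S class. CLP arrays lie above all sham arrays in 1435448_at and 1435449_at, while in 1456005_a_at the open points lie lower in both groups. In 1456006_at the open points lie lower among sham arrays. Among its CLP arrays the open point of replicate 2 (signal 409) lies above the filled point of replicate 1 (signal 381).

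The 4 tested Bcl2l11 probe sets differed in how they followed the 18S class. In 1456005_a_at the arrays of the higher class exceeded those of the lower class by 0.71 log2 units among sham mice and by 0.58 among CLP mice, about as much as CLP exceeded sham. In 1456006_at the same differences were 0.35 and 0.36. In 1435448_at they were -0.16 and -0.18, and in 1435449_at 0.07 and -0.15. Within the higher class (3 CLP and 3 sham arrays) the log2 fold changes of 1456005_a_at, 1435448_at, 1456006_at and 1435449_at were 0.50, 0.71, 0.46 and 0.55, and within the lower class (2 and 2) they were 0.63, 0.73, 0.45 and 0.78. None of the 4 passed within a class, with adjusted p-values by limma of 0.101 to 0.186 in the higher and 0.45 to 0.741 in the lower class.

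Within each class every CLP array lay above every sham array for all 4 tested Bcl2l11 probe sets. The same held for 2 of the other 20 member probe sets, the anti-apoptotic Bcl2l1 1420888_at and Mcl1 1448503_at. It also held for 2.1% of all 27022, a count made after the data were seen. The 4 probe sets read RNA of the same mice and the same gene, so they are not independent. Without regard to class, 2 of the 24 members had all CLP arrays above all sham arrays, both of them Bcl2l11, against 0.862% of all probe sets, and none had all CLP arrays below, against 2.11% (2.97% in either direction).

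With the 18S class as a block in the fit, 2 of the 24 members were called, 1435448_at (adjusted p = 0.0156 by limma) and 1456005_a_at (0.55 ± 0.09, adjusted p = 0.0156 by limma), where 0.648% of all probe sets were called higher and 2.66% in either direction. With 1 value per gene, the brightest probe set of Bcl2l11 did not pass over 13073 genes (adjusted p = 0.259 by limma), while the mean of its 4 tested probe sets did, at 0.59 ± 0.11 (adjusted p = 0.0375 by limma). By the mean, none of the other 8 genes passed, and their values lay between -0.15 for Bid and 0.18 for Bcl2. Their adjusted p-values by limma ran from 0.647 for Bbc3 to 0.98 for Bad.

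The call of 1435448_at was lost when most single arrays were left out. It held without CLP replicate 1 (0.81, adjusted p = 0.00495 by limma) and without CLP replicate 4 (0.72, adjusted p = 0.0398 by limma). Without CLP replicates 2, 3 or 5, or any of the 5 sham replicates, the adjusted p by limma lay between 0.0654 and 0.111. Its log2 fold change over these 10 fits lay between 0.66 without CLP replicate 2 and 0.81 without CLP replicate 1. With all probe sets tested, the dim ones included, the value was again 0.72 with an adjusted p = 0.0973 by limma.

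Markers of other cells were also put in the fit. With the erythroid marker mean as a covariate 1435448_at gave 0.87 ± 0.12 (adjusted p = 0.0215 by limma), and with the neutrophil and monocyte marker mean 0.78 ± 0.10 (adjusted p = 0.0141 by limma). In both groups replicate 1 had the highest neutrophil and erythroid sums and the lowest signal of 1435448_at. Leaving out CLP replicate 1 alone gave 0.81, so these fits do not separate the cell mix from that replicate. The 3 prime to 5 prime ratio of the Actb and Gapdh control probe sets, a measure of how short the copied RNA is, had medians of 3.68 in CLP and 3.57 in sham arrays on the log2 scale. As a covariate it left 1435448_at at 0.71 ± 0.12 (adjusted p = 0.0248 by limma). Whether the lower summed signal of CD4 T cell genes, or the lower signal of the NK gene Klrd1, in CLP arrays bears on Bcl2l11 was not tested.

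**Figure D2:**
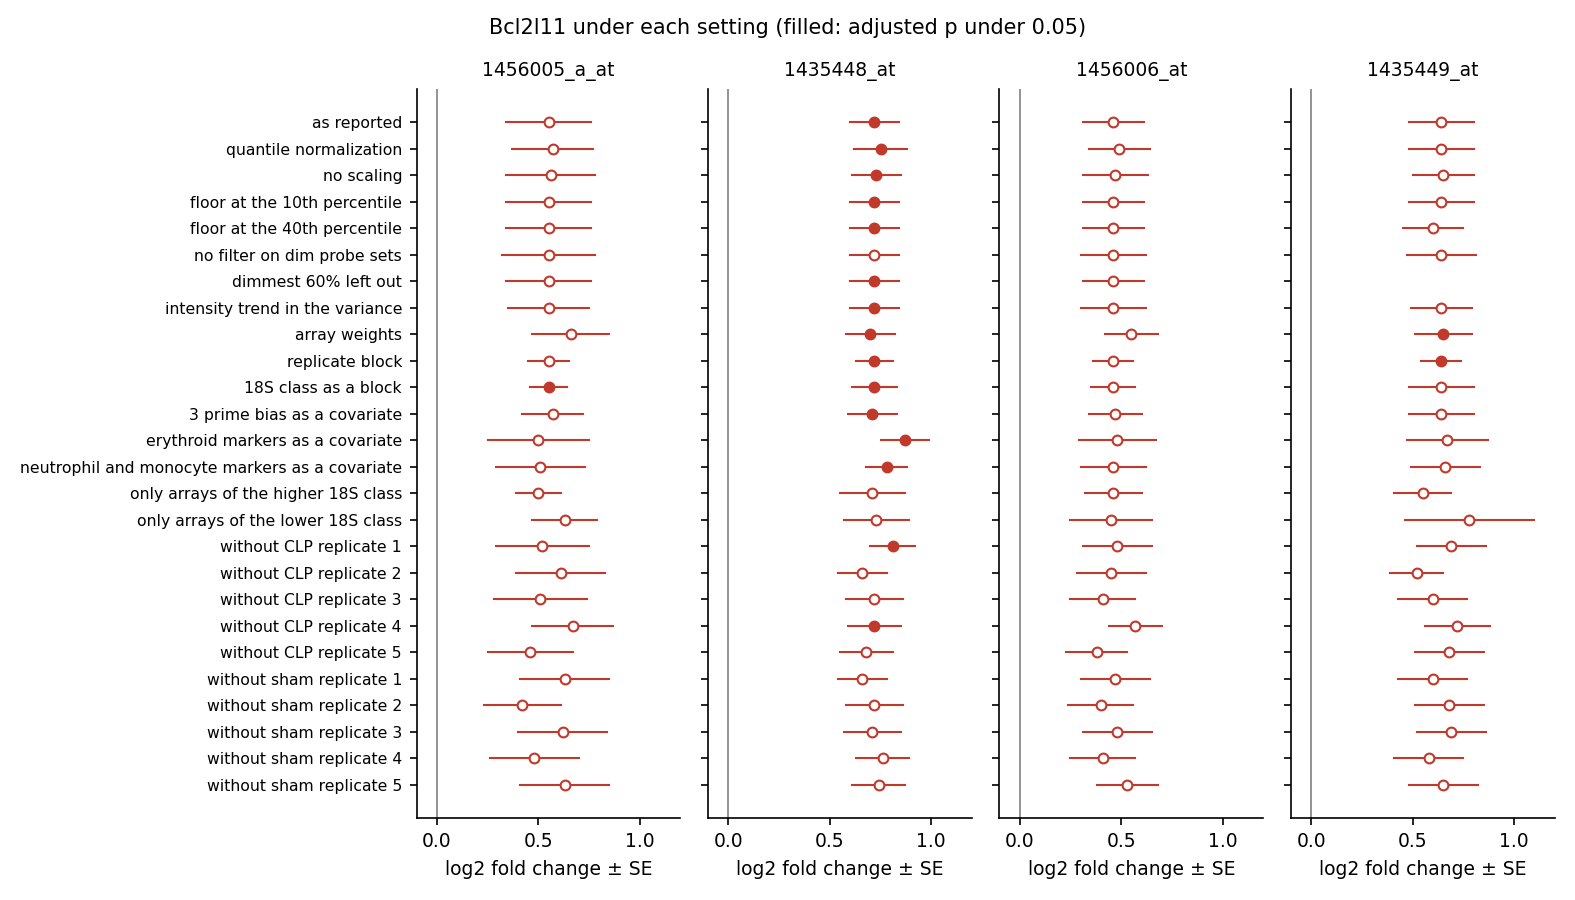
Log2 fold change (CLP minus sham, ± SE) of the 4 tested Bcl2l11 probe sets under the reported processing and 25 other settings, 1 row per setting, with filled points where the adjusted p is under 0.05. A probe set left out by a filter has no point. Every point lies to the right of 0, from 0.38 to 0.87, and most filled points belong to 1435448_at.

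The upstream region of Bcl2l11 is shown because it is the member that rose. It is the 250 bases before a RefSeq start of the gene, chr2:128125788-128126037 on the plus strand of GRCm38.p6, and the capitals mark a match to the core motif of FOXO factors, GTAAACA. FOXO factors are known activators of Bim and Puma transcription. The 30 bases below it are from upstream of a Bbc3 start (chr7:16310083-16310112, plus strand), with the same motif in capitals on the opposite strand.
Bcl2l11: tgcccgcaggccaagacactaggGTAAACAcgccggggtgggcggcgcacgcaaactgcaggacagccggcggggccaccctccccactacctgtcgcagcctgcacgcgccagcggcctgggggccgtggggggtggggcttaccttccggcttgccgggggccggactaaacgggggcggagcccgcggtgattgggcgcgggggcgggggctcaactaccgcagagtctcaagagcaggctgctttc
Bbc3: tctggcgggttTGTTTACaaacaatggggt

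On either strand GTAAACA was found in 3.17% of the 32851 upstream windows of 250 bases in the RefSeq table. Among 14 such windows of genes with a member probe set, on chromosomes other than 18, it was in 2, of Bcl2l11 and Bbc3. Both genes also had windows without it, and no window of Pmaip1 was among the 14. The full glucocorticoid response element (AGAACA and TGTTCT, 3 bases apart) was in 0.00913% of all windows and in none of these 14, and the cAMP response element TGACGTCA in 1.55% and none. The GC box GGGCGG was in 32.7% of all windows and in 9 of the 14, among them Bcl2l11 with 3 copies in the window shown. A match is a string of letters and does not show that a factor binds.

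Bbc3, the other gene with the motif among the windows searched, encodes Puma, a BH3-only protein induced by p53 and FOXO. Its probe set read 254, 225, 227, 187 and 229 in CLP and 199, 156, 208, 202 and 233 in sham replicates 1 to 5. The groups overlapped, with CLP replicate 4 below 4 of the 5 sham arrays. The log2 fold change was 0.17 ± 0.12 (SE, adjusted p = 0.72 by limma), with an unadjusted 95% interval of -0.09 to 0.43.

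Pmaip1 encodes Noxa, which binds Mcl-1 and promotes its breakdown. It read 128 to 158 in CLP and 103 to 148 in sham arrays, with sham replicate 4 alone at 103 and the other 4 between 138 and 148. The log2 fold change was 0.06 ± 0.11 (SE, adjusted p = 0.947 by limma), with an interval of -0.19 to 0.31. Bid, which death receptors activate through cleavage by caspase-8, read 361, 405, 274, 318 and 229 in CLP and 317, 378, 316, 381 and 335 in sham replicates 1 to 5 by 1417045_at. The CLP arrays spread on both sides of the sham arrays (SD 0.32 against 0.13 on the log2 scale), and the difference was -0.15 ± 0.15 (SE, adjusted p = 0.859 by limma).
The other probe sets of Bid, 1447873_x_at and 1448560_at, were too dim to test, at or under 92 on every array.

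Bad, which growth factor signals switch off by phosphorylation, had 2 tested probe sets. 1416582_a_at read 873 to 996 in CLP and 844 to 1046 in sham arrays, and 1416583_at 254 to 302 and 227 to 319. Both differed by less than their spread, with log2 fold changes of -0.01 ± 0.09 and 0.03 ± 0.10 (SE, adjusted p = 0.987 and 0.969 by limma). Bak1, the effector that forms pores in the mitochondrial membrane, was dim: 1418991_at read 93 to 135 in CLP and 90 to 129 in sham arrays, and 1425716_s_at 94 to 127 and 92 to 117. Its log2 fold changes were 0.00 ± 0.12 and 0.08 ± 0.10 (SE, adjusted p = 0.999 and 0.905 by limma). The signs of both Bak1 and both Bad values turned under other settings, that of 1425716_s_at in the lower 18S class. For Bad and Bak1 together the unadjusted intervals lay between -0.26 and 0.31, so a rise as large as that of 1435448_at was outside them. For Bad the same held for a fall. The sham means of Bak1, 6.79 and 6.67 on the log2 scale, lay near the floor of 6.13, so a fall of that size could not show.

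**Figure D3:**
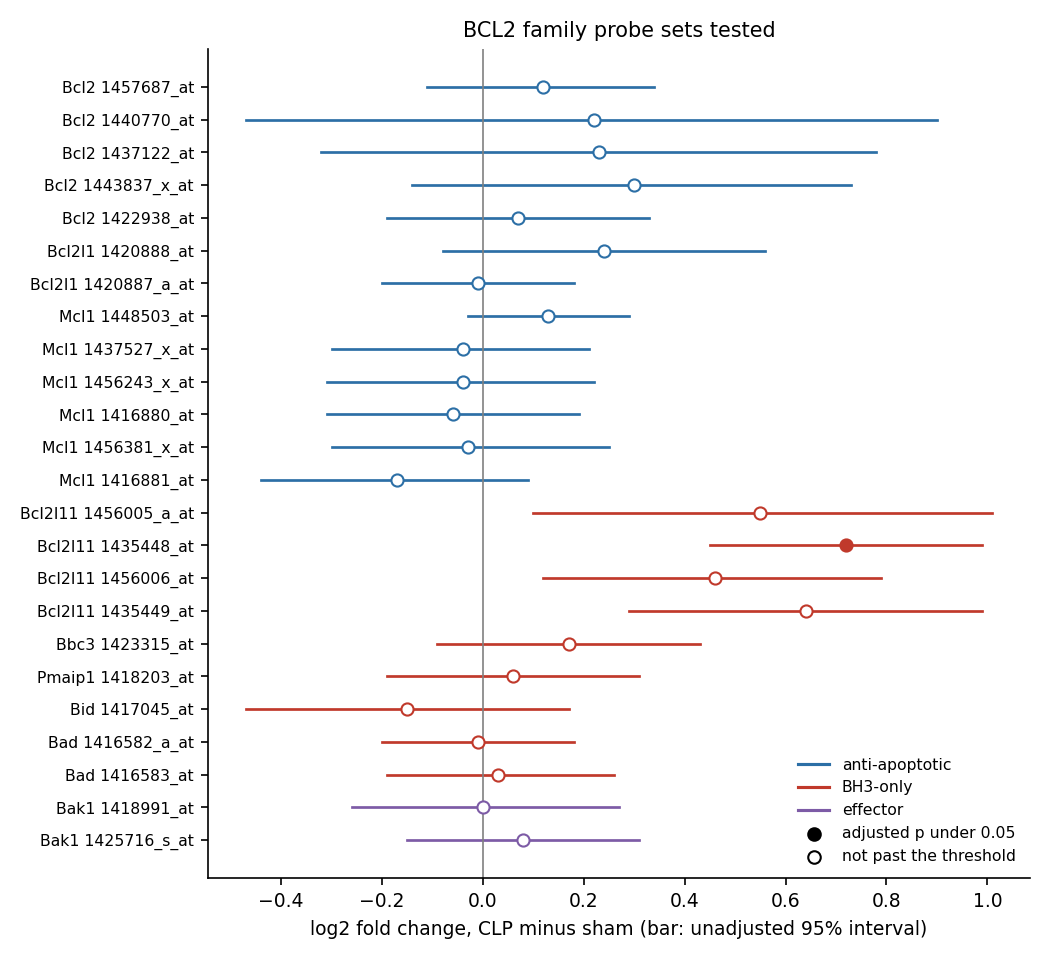
Log2 fold change (CLP minus sham) of each of the 24 tested BCL2 family probe sets with its unadjusted 95% interval, coloured by role, with a filled point where the adjusted p is under 0.05. The 4 Bcl2l11 intervals lie above 0, from 0.10 to 1.01, and the intervals of the other 20 probe sets all include 0.

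Among the anti-apoptotic members, Bcl2 was read by 5 probe sets. The brightest, 1457687_at, read 2771, 3394, 3458, 2956 and 3661 in CLP and 2607, 3248, 3012, 3248 and 2850 in sham replicates 1 to 5. The groups overlapped, and the log2 fold change was 0.12 ± 0.10 (SE, adjusted p = 0.829 by limma). The other 4 gave values of 0.07 to 0.30, so all 5 had a higher mean in CLP arrays and none passed. Their smallest unadjusted p by limma was 0.165. Under the settings tried 2 of the 5 turned sign: 1440770_at and 1457687_at, each within one 18S class.

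The spread of Bcl2 differed between its probe sets. 1440770_at ran from 689 to 1914 in CLP and from 520 to 1415 in sham arrays, with CLP replicate 4 highest of all, while 1422938_at had CLP replicate 4 lowest of all at 228. Among sham mice the arrays of the higher 18S class exceeded the lower by 1.04 log2 units in 1440770_at, 0.77 in 1437122_at, 0.74 in 1443837_x_at and 0.30 in 1422938_at, and were 0.20 units lower in 1457687_at. The intervals of the 5 Bcl2 probe sets ran from -0.47 to 0.90. For 1440770_at, 1437122_at and 1443837_x_at a rise as large as that of Bcl2l11 1435448_at was within the interval. A fall of that size was outside the intervals of all 5.

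Bcl2l1 encodes Bcl-xL, which T cells raise on activation. 1420888_at read 727, 520, 698, 575 and 677 in CLP and 609, 428, 608, 444 and 641 in sham replicates 1 to 5. Replicates 2 and 4, of the lower 18S class, were lowest in both groups. The groups overlapped as a whole but not within either class, and the log2 fold change was 0.24 ± 0.15 (SE, adjusted p = 0.659 by limma, and 0.119 with the class as a block). The dimmer 1420887_a_at read 124 to 163 in CLP and 136 to 148 in sham arrays and gave -0.01 ± 0.09 (SE, adjusted p = 0.987 by limma). The remaining 2 probe sets of the gene read at most 71 on any array and were not tested.

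Mcl1 encodes a short-lived protein that naive and activated T cells need to survive. Its 6 probe sets were all tested. The brightest, 1448503_at, read 5645, 5686, 5729, 5515 and 5685 in CLP and 5268, 5053, 5569, 5100 and 4871 in sham replicates 1 to 5. The groups touched only through CLP replicate 4 and sham replicate 3. The difference was small, 0.13 ± 0.07 (SE, adjusted p = 0.598 by limma, and 0.436 with the class as a block). The other 5 gave -0.17 to -0.03, with 1416881_at lowest at -0.17 ± 0.12 (SE, adjusted p = 0.732 by limma). The intervals of all 6 lay between -0.44 and 0.29, short of the change of 1435448_at in either direction.

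**Figure D4:**
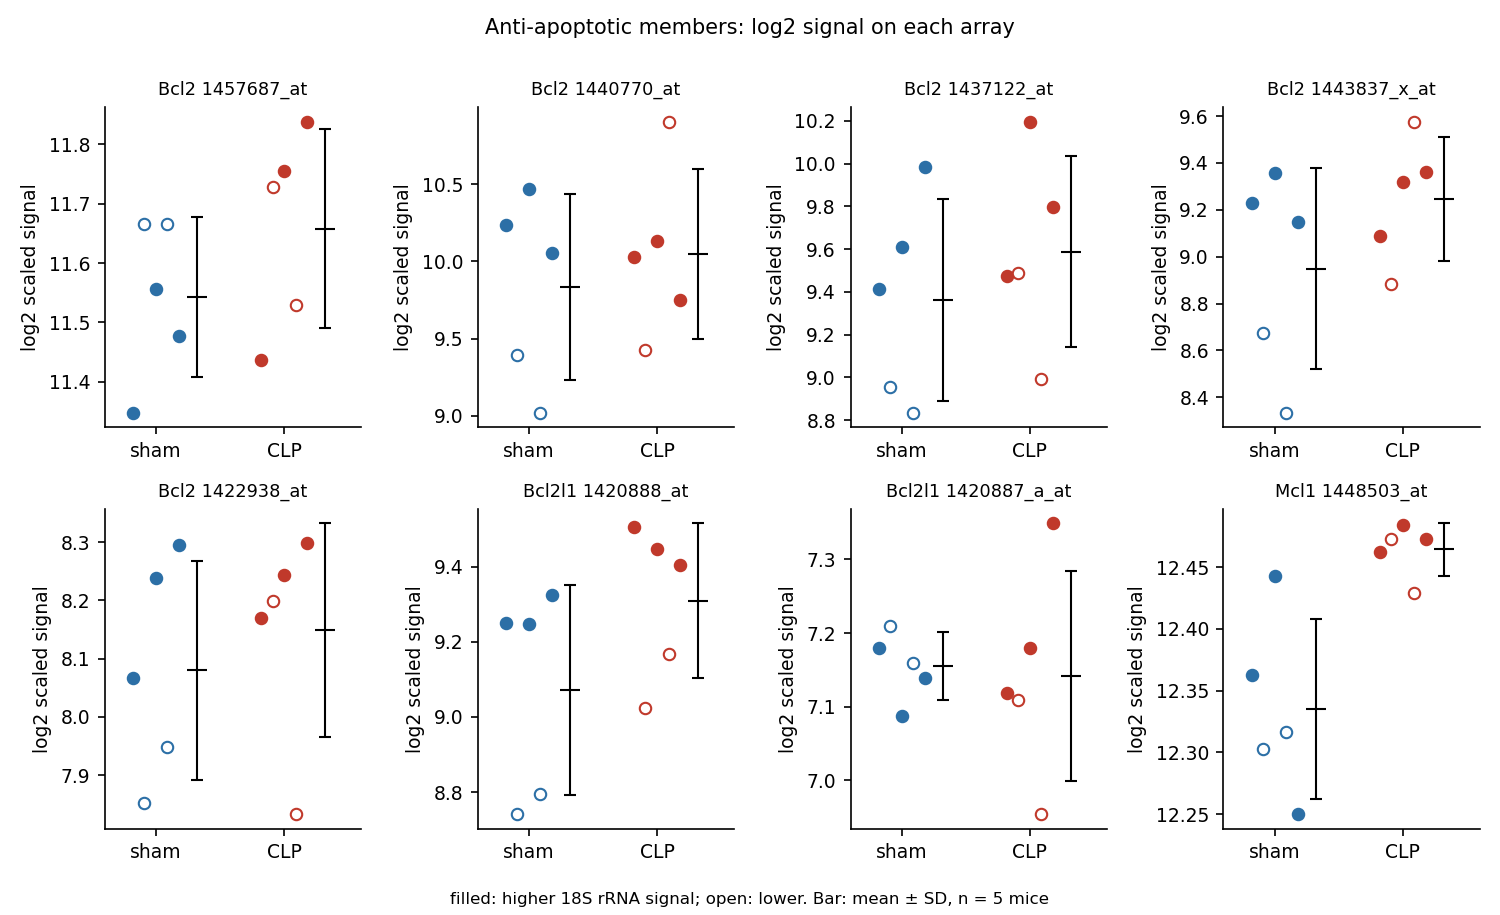
Log2 scaled signal on each array of the 5 Bcl2 probe sets, the 2 tested Bcl2l1 probe sets and the brightest Mcl1 probe set, drawn as for Bcl2l11 (1 point per mouse, mean and SD of 5 mice, filled points for the higher 18S class). The groups overlap in all 8 panels, and 1 open CLP point is the highest of all in Bcl2 1440770_at and 1 the lowest of all in Bcl2 1422938_at.

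Set side by side, the anti-apoptotic probe sets had a median log2 fold change of 0.07 over 13, with 7 higher and 6 lower on average. The pro-apoptotic probe sets had a median of 0.08 over 11, with 9 higher, 4 of them Bcl2l11. Without Bcl2l11 the pro-apoptotic median was 0.03 over 7 probe sets, and none of these 7 or of the 13 had an unadjusted p under 0.05 by limma. The median over all 27022 probe sets was 0.00, with 51.3% higher on average. All 4 tested Bcl2l11 probe sets had an unadjusted p under 0.05 by limma, as had 10.9% of all probe sets. Over the settings tried the anti-apoptotic median ran from 0.01 (without sham replicate 2 or 4, and in the higher 18S class) to 0.12, and the pro-apoptotic median from 0.05 in the higher to 0.21 in the lower class.

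The genes around the family were read from lists by their brightest tested probe set. Read the same way, 11.8% of all 13073 genes had an unadjusted p under 0.05 by limma, 0.199% were called higher and 0.551% lower. Of 17 further genes listed with the BCL2 family, some of them partners of its members, 10 could be tested. None passed by limma and none had an unadjusted p under 0.05, with a median of 0.04. The lowest p-values belonged to Bnip2 (-0.17 ± 0.10, adjusted p = 0.62 by limma, while its dimmer probe set 1441989_at gave 0.63 ± 0.17, adjusted p = 0.126), Bcl2l2, the anti-apoptotic Bcl-w (0.23 ± 0.14, adjusted p = 0.681), Bok (0.10 ± 0.09, adjusted p = 0.814) and Hrk (0.06 ± 0.08, adjusted p = 0.911). Bcl2a1a, Bcl2a1b and Bcl2a1d, near-identical copies, were among the 7 that were not tested.

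Of 15 genes that act at or after the opening of the mitochondrion 13 were tested. None passed by limma and 1 had an unadjusted p under 0.05, beside 11.8% of all genes. This was Xiap, an inhibitor of caspases, at -0.30 ± 0.10 (limma adjusted p = 0.216) in its brightest probe set, while 1 of its 3 other probe sets gave 0.33. In the brightest all CLP arrays (1041 to 1389) lay below all sham arrays (1407 to 1625), as in 2.11% of all probe sets. Mtch2, a mitochondrial receptor for cleaved Bid, gave -0.30 ± 0.16, Opa1, which shapes the inner membrane, -0.14 ± 0.10, and Diablo, an antagonist of the inhibitors of apoptosis, -0.17 ± 0.13 (adjusted p = 0.569, 0.739 and 0.767 by limma). Probe sets of these genes differed in direction: Mtch2 1448654_at gave 0.54 ± 0.14 (adjusted p = 0.118 by limma), and the other 2 tested probe sets of Opa1 gave 0.15 and 0.24. Of the 13 genes 3 had a higher mean in CLP arrays.

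Of 22 transcription factors, cytokine receptors and kinases that feed into the family 19 were tested, and none passed by limma, with 1 at an unadjusted p under 0.05. Stat3 gave 0.53 ± 0.18 (adjusted p = 0.25), Stat5a, a cytokine-driven activator of Bcl2l1, 0.21 ± 0.10 (adjusted p = 0.496), Atf4, of the stress response, -0.19 ± 0.09 (adjusted p = 0.505) and Foxo1 -0.19 ± 0.10 (adjusted p = 0.549, all by limma). A dimmer Foxo1 probe set, 1416982_at, gave -0.52 ± 0.12 (adjusted p = 0.0868 by limma), with all CLP arrays below all sham arrays, as in 2.11% of all probe sets, and the last gave -0.07. These are RNA levels and do not show the activity of the proteins.

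Of 34 genes for proteins that bind, modify or degrade family members 32 were tested, and 1 fell by limma, against 0.551% of all genes. This was Dynll1, the dynein light chain that binds Bim and holds it at the cytoskeleton. Its probe set 1456125_a_at read 3995, 2212, 2142, 2756 and 2187 in CLP and 4946, 5049, 4726, 5113 and 5102 in sham replicates 1 to 5. All CLP arrays lay below all sham arrays, as in 2.11% of all probe sets, with CLP replicate 1 nearest to them. The log2 fold change was -0.95 ± 0.16 (SE, adjusted p = 0.0299 by limma). Of its 3 other tested probe sets 2 passed, at -1.03 and -0.96 (adjusted p = 0.0296 and 0.03 by limma), and 1440278_at gave -0.09. The call of 1456125_a_at held without CLP replicate 1 (-1.11, adjusted p = 0.00117 by limma) or CLP replicate 4 (-0.97, adjusted p = 0.0375 by limma). Without CLP replicates 2, 3 or 5 or any sham replicate the adjusted p by limma was 0.0667 to 0.101, with values of -0.97 to -0.88. Without the filter on dim probe sets it was -0.95 with an adjusted p = 0.112 by limma.

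The next lowest p-values of this list were those of Pim2, a kinase that phosphorylates Bad (-0.39 ± 0.12, adjusted p = 0.192 by limma), Usp9x, a deubiquitinase that stabilises Mcl-1 (-0.39 ± 0.12, adjusted p = 0.2), and Bag4 (0.21 ± 0.09, adjusted p = 0.354). Of the dimmer probe sets of Usp9x 1450039_at gave 0.16, and of those of Bag4 1418707_at gave -0.06. The list had a median of -0.06, and 6 of its 32 genes had an unadjusted p under 0.05, beside the 11.8% of all genes.

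The genes whose values over the 10 arrays lay closest to those of Bcl2l11 1435448_at, after both were centred on their sham means, were Pias2, Zscan12, Gm8369, Rnf19a and Arap2, among 13064 genes searched. Their root mean square differences from it were 0.13, 0.13, 0.15, 0.15 and 0.16 log2 units. Rnf19a was called (0.72 ± 0.13, adjusted p = 0.0387 by limma), and the other 4 had log2 fold changes of 0.57 to 0.67 that were not. Centring on the sham mean kept the difference between the groups in the match. Fold changes near that of 1435448_at were thus part of how these genes were chosen, and are not a separate result. The call of Rnf19a was lost without CLP replicates 2, 3 or 5 or any sham replicate (0.63 to 0.74, adjusted p = 0.0736 to 0.12 by limma).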

How the data were processed

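CD4+ splenocyte RNA of 5 CLP and 5 sham mice was amplified in 2 rounds and read on Affymetrix arrays, per the labels' protocols. The authors deposited linear intensities, with array medians from 127.6 to 142.4. Software, background correction and scaling: not given in the sources used here. Precision is limited by the number of arrays. Of 45101 probe sets 64 were controls, 34945 had 1 gene symbol in the platform annotation and 932 had several.

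Each array was scaled to the median of the array medians, with a floor at the 25th percentile and the dimmest 40% left out; 0.132% of tested values lay at the floor. Fits used limma 3.58.1 in R 4.3.3, figures matplotlib 3.10.9. On simulated arrays (27022 probe sets, CLP against sham) 50% of 1.5-fold and 80% of 2-fold changes were recovered, with 5.26% false calls. All tests were two-sided. Each array was taken as 1 mouse and 1 replicate. The CLP titles number the biological replicates 1 to 5, while all 5 sham titles read biological replicate 1. The sham titles differ only in a suffix, sham-1 to sham-5, which served as the replicate number. Every SE and p-value rests on reading the sham arrays as separate mice, which their titles alone do not settle.

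Members and lists were chosen with earlier results of these data known. All member probe sets are given; of each other list up to 4 genes with the lowest p were named, and the 5 genes nearest in profile to a called member. Alternatives were other scalings, floors, filters and variance models, array weights, blocks, covariates and leaving out each array; fits within each 18S class, and the alternatives for called genes outside the family, were added after the data were seen. Replicate numbers were not taken as pairs: deviations of same-numbered arrays correlated at 0.06 to 0.58 across 27022 probe sets. Promoter sequences are from RefSeq (GRCm38.p6).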

Additional observations from a re-analysis of the deposited data

Results flagged for a closer look

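Each group of 5 arrays was examined on the log2 scale for the 24 tested member probe sets. The gap of the highest or lowest log2 value to the nearest other was set against the group's whole range. Of these 48 groups 2 had a gap over 0.71 of the range, and chance gives about 1 in 20. For Bcl2 1422938_at CLP replicate 4 read 228, with the other CLP arrays at 288 to 315. For Pmaip1 1418203_at sham replicate 4 read 103, with the other sham arrays at 138 to 148. Both arrays belong to the lower 18S class. No Bcl2l11 probe set was among them.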

How the results depend on the processing

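The count of called BCL2 family probe sets, 1 as reported, was 0 with no filter on dim probe sets, 0 within the higher and 0 within the lower 18S class, and 2 with array weights, with the 18S class as a block and with the replicate block. It ran from 0 to 1 when each array was left out. The call without a filter was lost over 45037 probe sets tested. Within a class and without 1 array fewer samples were used. The replicate block added Bcl2l11 1435449_at (0.64, adjusted p = 0.043 by limma), as did array weights (0.65, adjusted p = 0.0427 by limma); the numbers share no stated litter or day, and 1 of 5 CLP arrays correlated best with its own number. By gene, 0 were called by the brightest probe set and 1 by the mean of probe sets. Calls over the whole table, 45 higher and 145 lower as reported, were 154 and 355 with array weights, 175 and 543 with the 18S class as a block, 112 and 322 with the 3 prime covariate, and 0 and 3 with no filter. Leaving out 1 array gave from 0 and 4 (without sham replicate 3) to 123 and 384 (without CLP replicate 1), so the shares of called probe sets given beside the members move with single arrays; without CLP replicates 2, 3, 4 and 5 they were 9 and 17, 10 and 15, 74 and 184, and 4 and 9, and without sham replicates 1, 2, 4 and 5 they were 8 and 26, 6 and 18, 6 and 11, and 29 and 30. All 4 tested Bcl2l11 probe sets kept their sign in each of the 24 or 25 settings in which they were tested. Dynll1 1456125_a_at kept its sign in all 25 and passed in 14 of them, Rnf19a in 12 of 25; within the lower 18S class they gave -1.04 and 0.85 (adjusted p = 0.412 and 0.59 by limma).

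Uncalled values, most of them near 0, turned sign, and the cause was not tested. With quantile normalization Bad 1416582_a_at gave 0.03 and Bak1 1418991_at -0.01. Bak1 1418991_at also gave -0.01 with a floor at the 40th percentile and with array weights, 0.00 with the 3 prime covariate and -0.08 in the higher class. With array weights Bcl2l1 1420887_a_at gave 0.02 and the Mcl1 probe sets 1437527_x_at, 1456243_x_at, 1416880_at and 1456381_x_at 0.03, 0.04, 0.02 and 0.06. With the erythroid covariate Mcl1 1456381_x_at gave 0.00, Pmaip1 -0.02 and Bad 1416583_at 0.00. Bcl2 1440770_at, at 0.22 as reported, gave -0.28 in the higher and 0.96 in the lower class. In the higher class Bcl2l1 1420887_a_at gave 0.08, Pmaip1 -0.05 and Bad 1416583_at -0.07. In the lower class Bcl2 1457687_at gave -0.04, Mcl1 1437527_x_at, 1456243_x_at and 1456381_x_at 0.06, 0.07 and 0.12, Bad 1416582_a_at 0.09 and Bak1 1425716_s_at -0.05. Leaving out each array gave -0.06 to 0.03 for Bcl2l1 1420887_a_at, -0.10 to 0.02, -0.10 to 0.03, -0.11 to 0.02 and -0.09 to 0.05 for those 4 Mcl1 probe sets, -0.04 to 0.09 for Pmaip1, -0.05 to 0.03 and -0.03 to 0.09 for Bad 1416582_a_at and 1416583_at, and -0.07 to 0.07 for Bak1 1418991_at. Probe sets near the floor, such as those of Bak1 and Pmaip1, have the least room to show a fall.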
